A study of Mus musculus with 8 samples.

Results

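The mRNAs of 9 enzymes that build and break down glycogen were followed in OT-1 CD8+ T cells treated with GC7. They are the phosphoglucomutases *Pgm1* and *Pgm2*, the UDP-glucose pyrophosphorylase *Ugp2*, glycogenin *Gyg*, muscle glycogen synthase *Gys1*, the branching enzyme *Gbe1* and the glycogen phosphorylases *Pygl*, *Pygm* and *Pygb*. These 9 of the 55536 genes counted were chosen by name, with their difference between GC7- and mock-treated cells already known, and their symbols were matched to Ensembl identifiers. Their values in that comparison are therefore a description. Calls among them are counted beside those of all genes, no p-value is given for a member, and the calls are not used as evidence. All 9 were among the 11189 genes with more than 3 CPM (counts scaled by library size) in at least 4 of the 8 libraries.

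GC7 is a spermidine derivative that inhibits deoxyhypusine synthase, the enzyme that starts the hypusine modification of translation factor eIF5a. Donor mice were C57BL/6, carried the OT-1 T cell receptor transgene on a Rag-1KO background with CD45.1 or CD45.2 congenic alleles, and were 5 to 12 weeks old. Lymph node cells were activated with 100 nM SIINFEKL, the ovalbumin peptide this receptor recognises, for 2 days. They were then washed and kept for 2 days in 20 ng/mL recombinant human IL-2 with 10 µM GC7 (4 libraries) or without it, with the acetic acid vehicle (mock, 4 libraries). The receptor, the peptide and IL-2 were thus common to both groups, every cell carried 1 receptor specificity, and GC7 is known to act on other targets besides eIF5a maturation. Replicates were separate samples by their labels, which do not say whether each came from its own mouse, so the spread given here is that between these samples. Total RNA was extracted for mRNA sequencing, and no glycogen, enzyme activity or protein was measured in these files.

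Glycogen is a store of glucose in branched chains. Glucose-6-phosphate is turned into glucose-1-phosphate by phosphoglucomutase and into UDP-glucose by Ugp2, glycogenin makes a short primer on itself, glycogen synthase lengthens it and the branching enzyme adds side chains. Glycogen phosphorylase removes glucose from chain ends as glucose-1-phosphate. The phosphorylases are named for liver (*Pygl*), muscle (*Pygm*) and brain (*Pygb*), where each is the main form. Phosphorylase kinase helps to activate them by phosphorylating a serine near the start of the protein. Activated T cells take up glucose mainly for glycolysis.

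The 3 phosphorylases share that regulatory serine, and reads from bases that differ along their exons tell the isozymes apart. The first 66 coding bases are shown to compare them. They come from the GENCODE transcript with the longest coding sequence, and capitals mark codon 15 counted from the start codon, which encodes the serine.
Pygl: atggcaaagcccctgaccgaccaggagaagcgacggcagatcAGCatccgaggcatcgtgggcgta
Pygm: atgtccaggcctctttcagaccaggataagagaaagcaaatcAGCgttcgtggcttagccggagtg
Pygb: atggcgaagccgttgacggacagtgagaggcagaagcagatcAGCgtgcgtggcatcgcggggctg
The codon was AGC in all 3 genes. Over these 66 bases *Pygl* matched *Pygm* at 45 positions and *Pygb* at 47, and *Pygm* matched *Pygb* at 43. Over the whole coding sequences, of 2550 bases in *Pygl*, 2526 in *Pygm* and 2529 in *Pygb*, identity was 74.7% between *Pygl* and *Pygm*, 74.8% between *Pygl* and *Pygb* and 77.6% between *Pygm* and *Pygb*. No phosphorylase had a stretch of 200 or more bases that matched another member at 90% identity, the limit above which reads might be shared. *Pygl* matched *Gm47451*, a gene with at most 2 counts in a library, over 387 bases at 94.8% identity, and the handling of reads with several matches is not given in the sources used here.

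The letters ACGTG are the core of the element bound by hypoxia-inducible factors, which raise many genes of glucose use. They were searched on both strands of the 300 bases around each RefSeq start site (250 before and 50 after, GRCm38), and 41 bases around a match are shown for the 3 genes among those called more than 2-fold lower that had one. Each is written along the gene's own strand, with the match, or its reverse complement CACGT, in capitals.
Pygl, chr12:70227792-70227832, minus strand: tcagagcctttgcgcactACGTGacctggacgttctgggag
Pygm, chr19:6384329-6384369, plus strand: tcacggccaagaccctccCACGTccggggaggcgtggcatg
Pgm1, chr4:99929225-99929265, plus strand: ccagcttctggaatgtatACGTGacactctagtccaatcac
Pgm1, chr4:99929252-99929292, plus strand: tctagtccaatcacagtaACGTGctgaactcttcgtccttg
Counted from the start site, the matches begin at base -131 in *Pygl*, at -61 in *Pygm* and at -208 and -181 in *Pgm1*. The *Pygm* window lies outside annotated genes, the *Pygl* window in an intron of longer *Pygl* transcripts and both *Pgm1* windows in noncoding exons of *Itgb3bp*, which runs the other way. *Pygb*, *Gyg*, *Pgm2* and *Ugp2* held the letters too, so that 7 of the 9 genes had them, whereas *Gbe1* and *Gys1* had neither ACGTG nor GCGTG. Of all 32851 RefSeq windows of this length, 19.6% held ACGTG, 32.4% GCGTG and 43.8% at least 1 of them. The longer CACGTG, which contains ACGTG, stood in 7.15% of windows and, of the members, in that of *Gyg* alone. A match is not a bound site, and factor binding was not measured here.

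Of the 9 enzyme mRNAs, 7 were called lower in GC7-treated cells and *Gyg* and *Ugp2* were not called, at a false discovery rate (FDR) under 0.01 in the edgeR quasi-likelihood fit over all genes. None was called higher, also by DESeq2 and limma-voom or at an unadjusted p under 0.05. The 7 compare with 23.5% of all genes tested called lower and 23% called higher. *Pygm*, *Pygl*, *Gbe1*, *Pgm1* and *Gys1* were lower by more than 2-fold, beside 5.31% of all genes called lower and 3.17% called higher by that much. In 7 members every GC7 library was below every mock library, which held for 27.5% of all genes, and the reverse for 28.1%. The median log2 difference was -1.34 for the members and 0.02 for all genes tested. As the members were chosen from this comparison, nothing is read from these shares. In bulk RNA, fewer cells making an mRNA and less of it per cell cannot be told apart.

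**Figure D1:**
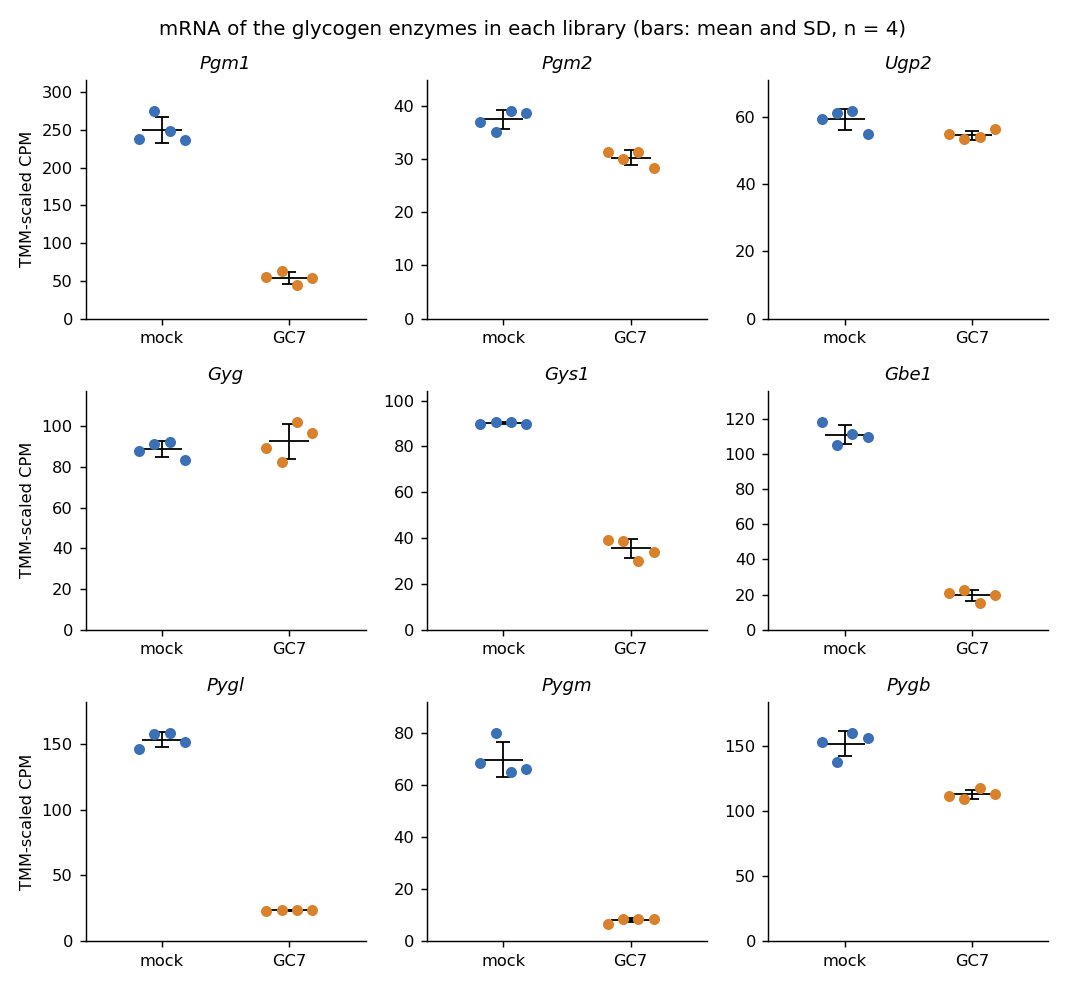
TMM-scaled CPM of each enzyme mRNA (vertical axes, each from 0) in 4 mock (blue) and 4 GC7 (orange) libraries, with points from left to right for replicates 1 to 4 and black bars for the mean and SD. The groups are apart for *Pgm1*, *Pgm2*, *Gys1*, *Gbe1*, *Pygl*, *Pygm* and *Pygb* and overlap for *Gyg* and *Ugp2*.

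Levels are given below as CPM scaled by TMM factors, which adjust library totals for differences in composition, in the order of replicates 1 to 4. Among the enzymes that supply UDP-glucose, *Pgm1*, which interconverts glucose-6-phosphate and glucose-1-phosphate, had the highest level in mock cells. It stood at 239, 275, 249 and 237 CPM in mock libraries and at 55.2, 62.9, 44.2 and 53.3 CPM in GC7 libraries. The GC7 libraries were all far below the mock libraries, with 250.04 ± 17.8 CPM (SD, n = 4) in mock cells and 53.9 ± 7.68 CPM in GC7-treated cells. The log2 fold change was -2.21 (95% interval -2.43 to -1.998), a level 4.63-fold lower. Of the *Pgm1* exon bases, 398 (13.6%) are also exon bases of *Itgb3bp* on the other strand. *Itgb3bp* had at most 282 counts in a library and *Pgm1* had 797 to 6513. As the strand setting of the counting is not given in the sources used here, reads from the shared bases cannot be assigned to 1 gene.

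*Pgm2*, a related enzyme that acts mainly on pentose phosphates, was at 37.1, 35.1, 39.1 and 38.6 CPM in mock libraries and at 31.3, 30.1, 31.4 and 28.3 CPM in GC7 libraries. The groups did not overlap, but the difference was small, with a log2 fold change of -0.31 (95% interval -0.45 to -0.16). It was no longer called when library totals replaced the TMM factors, with a log2 fold change of -0.22. The coding sequences of *Pgm1* and *Pgm2* were 47.6% identical.

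*Ugp2*, which joins glucose-1-phosphate to UTP, was at 59.5, 61.3, 61.8 and 54.9 CPM in mock libraries and at 54.9, 53.4, 54.0 and 56.4 CPM in GC7 libraries. The groups overlapped, because mock replicate 4 lay among the GC7 libraries. The log2 fold change was -0.12 (95% interval -0.25 to 0.01).

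The primer, chain and branch enzymes also differed among themselves. *Gyg*, glycogenin, was at 87.8, 91.0, 92.3 and 83.5 CPM in mock libraries and at 89.5, 82.3, 102 and 96.8 CPM in GC7 libraries. GC7 libraries held both the lowest and the highest value, and the log2 fold change was 0.06 (95% interval -0.09 to 0.22).

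*Gys1*, the glycogen synthase of muscle and most other tissues, was at 89.8, 90.6, 90.4 and 89.9 CPM in mock libraries. In GC7 libraries it was at 39.4, 38.6, 30.1 and 34.0 CPM. The mock libraries were almost alike (90.2 ± 0.398 CPM, n = 4), whereas the GC7 libraries were all lower and spread more widely (35.5 ± 4.30 CPM). The log2 fold change was -1.34 (95% interval -1.52 to -1.17), a level 2.54-fold lower. *Gys1* shares 310 exon bases (6.47% of its own) with *Ruvbl2* on the other strand, which had up to 3922 counts in a library. The same limit holds for reads from those bases.

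*Gbe1*, the only branching enzyme, was at 118, 105, 111 and 109 CPM in mock libraries. It was at 20.9, 22.5, 15.1 and 19.5 CPM in GC7 libraries. All GC7 libraries were below all mock libraries, and GC7 replicate 3 was the lowest of them. The mean level was 111 ± 5.38 CPM in mock cells and 19.5 ± 3.17 CPM in GC7-treated cells, with a log2 fold change of -2.50 (95% interval -2.73 to -2.28), a level 5.67-fold lower. *Gbe1* was thus the lowered enzyme of synthesis with the largest fold, ahead of *Pgm1* and *Gys1*.

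Of the breakdown enzymes, *Pygm* had the largest difference of all 9 members. It was at 68.4, 79.9, 64.8 and 66.04 CPM in mock libraries. In GC7 libraries it was at 6.68, 8.56, 8.49 and 8.43 CPM, which rested on 138 to 203 counts per library. GC7 replicate 1 was the lowest, apart from 3 close values. The mean went from 69.8 ± 6.92 to 8.04 ± 0.907 CPM (SD, n = 4 each), a log2 fold change of -3.12 (95% interval -3.34 to -2.90) and a level 8.67-fold lower.

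*Pygl* was at 146, 157, 158 and 152 CPM in mock libraries and at 22.9, 23.8, 23.3 and 23.7 CPM in GC7 libraries. Both groups were tight and lay far apart, at 153 ± 5.71 and 23.4 ± 0.418 CPM. The log2 fold change was -2.71 (95% interval -2.84 to -2.58), a level 6.54-fold lower and the narrowest interval among the members called more than 2-fold lower.

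*Pygb* was at 154, 138, 160 and 156 CPM in mock libraries and at 112, 109, 118 and 113 CPM in GC7 libraries. The groups did not overlap, but the difference was much smaller than for the other phosphorylases. It was called lower with a log2 fold change of -0.43 (95% interval -0.56 to -0.29), which is within 2-fold.

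The makeup of phosphorylase mRNA is described next. Shares were taken of the summed TPM, which divides counts by the exon length of each gene and so allows genes to be compared within a library. *Pygb* made up 43.0, 37.6, 43.6 and 43.3% of phosphorylase TPM in mock libraries and 81.1, 78.8, 80.3 and 79.5% in GC7 libraries. *Pygl* went from 29.4 ± 0.711% in mock cells to 11.6 ± 0.366% in GC7-treated cells, and *Pygm* from 28.7 ± 2.704% to 8.496 ± 0.857% (SD, n = 4 each). Thus no isozyme made up most of the phosphorylase mRNA in mock cells, and *Pygb* made up most of it in every GC7 library.

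The share of *Pygl* depended on the length used. The annotated exons of *Pygl* cover 6895 bases, but its transcript with the longest coding sequence is 2825 bases long. Which transcripts these cells made was not measured. With coding-transcript lengths, *Pygl* made up 46.2% of phosphorylase mRNA in mock cells, *Pygb* 33.1% and *Pygm* 20.7%, so *Pygl* and not *Pygb* came first. In GC7-treated cells *Pygb* came first under both lengths, at 79.9 ± 0.994% with exon length and 72.3% with coding-transcript length. The direction of each isozyme's difference was the same under both.

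**Figure D2:**
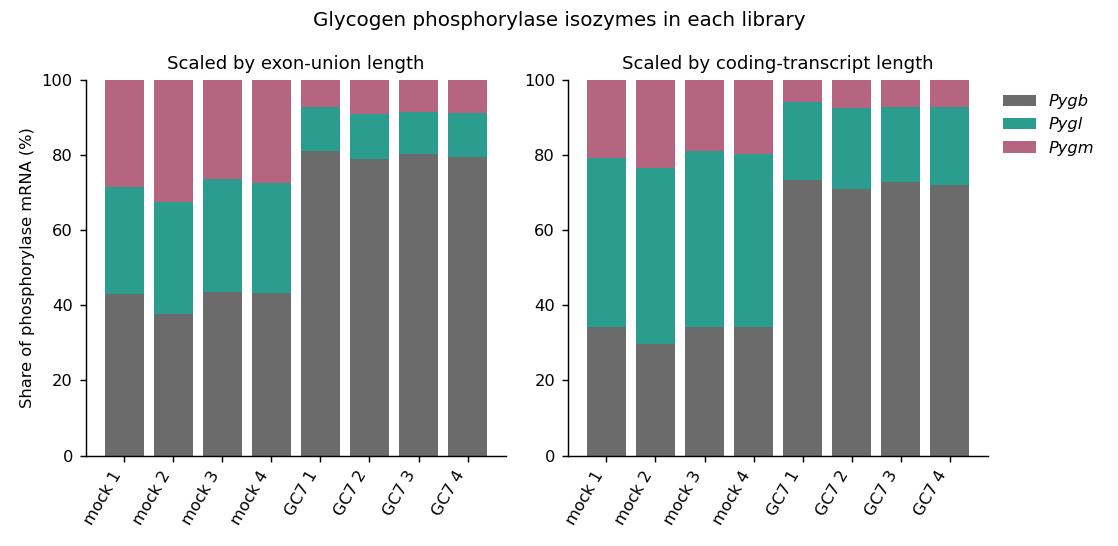
Share of each phosphorylase in the summed, length-scaled phosphorylase mRNA (vertical axis, percent) in each library (horizontal axis), with exon length on the left and coding-transcript length on the right. *Pygb* takes 78.8 to 81.1% in GC7 libraries on the left, against 37.6 to 43.6% in mock libraries.

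Summed phosphorylase mRNA was 180 ± 9.70 TPM in mock cells and 78.6 ± 0.603 TPM in GC7-treated cells, without the TMM factors that the fold changes use. The ratio of this sum to *Gys1* mRNA was 3.96, 4.04, 4.05 and 3.995 in mock libraries and 3.48, 3.58, 4.84 and 4.18 in GC7 libraries. The GC7 values lay on both sides of the mock values, with means of 4.01 ± 0.0372 and 4.02 ± 0.630. With coding-transcript lengths the ratio was 4.70, 4.82, 4.86 and 4.77 in mock libraries and 3.64, 3.75, 5.04 and 4.36 in GC7 libraries. The means were 4.79 ± 0.0701 and 4.1998 ± 0.645. GC7 replicate 3 lay above all mock libraries there, and the other GC7 libraries lay below them. *Gys1* does not stand for all of synthesis, as *Gbe1* (log2 fold change -2.50) and *Gyg* (0.06) differed otherwise than *Gys1* (-1.34). *Pgm1* made up 85.5 ± 1.32% of the summed *Pgm1* and *Pgm2* TPM in mock cells and 61.0 ± 3.996% in GC7-treated cells, without overlap.

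Compared per length within a library, *Pgm1* was the most abundant member in mock cells with 204 ± 10.0 TPM, followed by *Gyg* with 90.3 ± 6.81 TPM and *Pygb* with 75.6 ± 8.54 TPM, each apart from the next in every library. *Pygl* (53.0 TPM), *Pygm* (51.6 TPM), *Gbe1* (49.5 TPM), *Ugp2* (46.2 TPM) and *Gys1* (44.9 TPM) followed, and each overlapped its neighbour in this order. *Pgm2* was lowest with 34.6 ± 3.23 TPM, below all libraries of *Gys1*. Apart from *Pgm1*, the members thus had means between 34.6 and 90.3 TPM in mock cells.

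With *Pgm1* included, the means lay between 6.68 and 106 TPM in GC7-treated cells and between 34.6 and 204 TPM in mock cells. *Gyg* came first with 106 ± 6.80 TPM, then *Pygb* with 62.8 ± 0.840 TPM, and then *Pgm1* (49.5 TPM) and *Ugp2* (47.6 TPM), which overlapped. *Pgm2* (31.3 TPM) and *Gys1* (19.9 TPM) each stood apart. *Gbe1* (9.78 TPM) and *Pygl* (9.10 TPM) overlapped, and *Pygm* was lowest with 6.68 ± 0.683 TPM. With coding-transcript lengths *Pgm1* and *Gyg* still came first in mock and GC7-treated cells respectively, but the order of the others changed in mock cells. *Pygl* moved from rank 4 to 2, *Gyg* from 2 to 3, *Gbe1* from 6 to 4, *Pygb* from 3 to 5, *Gys1* from 8 to 6, *Pygm* from 5 to 7 and *Ugp2* from 7 to 8. In GC7-treated cells *Pygl* and *Gbe1* exchanged ranks 7 and 8, and the other ranks were the same.

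How much the libraries of a group varied depended on the gene. In mock cells the coefficient of variation of the scaled CPM ran from 0.441% for *Gys1* to 9.91% for *Pygm*. In GC7-treated cells it ran from 1.78% for *Pygl* to 16.3% for *Gbe1*, and it was lower than in mock cells for *Pygl*, *Pygb*, *Ugp2* and *Pgm2* and higher for the other members. It was also high for *Pgm1* (14.2%) and *Gys1* (12.1%), and in these and *Gbe1* GC7 replicate 3 was the lowest library, at 0.35 (*Gbe1*), 0.27 (*Pgm1*) and 0.23 (*Gys1*) below the group mean on the log2 scale. The same library was the highest of its group for *Gyg*, *Pgm2* and *Pygb*. Of 27 other tested genes of the pathway, it was the lowest GC7 library for 14 and the highest for 6, and mock replicate 2 was likewise the lowest mock library for 14 and the highest for 8. GC7 replicate 3 had the fewest counts of all (17528776), and the part of depth in this pattern was not tested. Without it, all 9 members kept their call and direction.

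**Figure D3:**
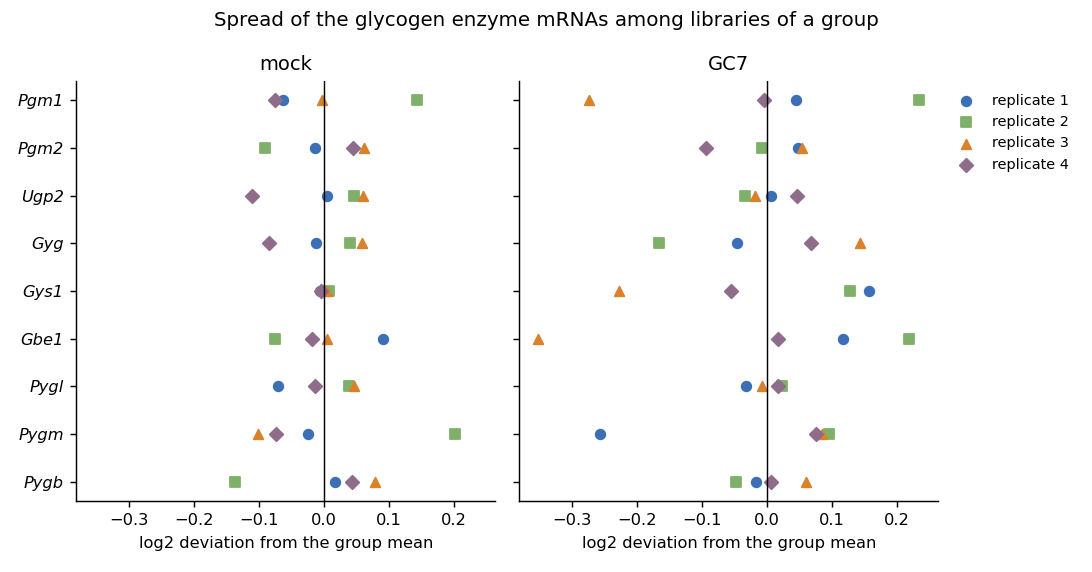
Deviation of each library from its group mean on the log2 scale (horizontal axis) for each enzyme mRNA, with mock libraries on the left, GC7 libraries on the right and a symbol for each replicate. GC7 replicate 3 (triangles) lies lowest for *Gbe1*, *Pgm1* and *Gys1* and highest for *Gyg*, and GC7 replicate 1 (circle) lies lowest for *Pygm*.

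The other genes of the pathway were taken from a list of 44, of which 27 passed the filter on low values. By edgeR's quasi-likelihood test with adjustment over all 11189 genes, 14 of the 27 were lower in GC7-treated cells, 7 of them by more than 2-fold, 1 was higher and 12 did not pass. Without *Epm2a*, which passed the filter through the mock libraries alone, 13 of 26 were lower, 6 of them by more than 2-fold. Of all genes tested 23.5% were lower, 5.31% lower by more than 2-fold and 23% higher. The median log2 fold change was -0.35 over the 27 and -0.32 without *Epm2a*. The list was drawn up with results of these data known, so its count is not independent evidence of a direction.

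The genes that regulate the phosphorylases and the synthase follow. Of 5 phosphorylase kinase genes 3 were tested and none was called by edgeR, DESeq2 or limma-voom, nor at an unadjusted p under 0.05. *Phkb*, a regulatory subunit, had a log2 fold change of 0.07 (95% interval -0.12 to 0.26). *Phkg2*, the catalytic subunit of liver, had one of -0.01 (95% interval -0.25 to 0.23). The muscle subunits *Phka1* and *Phkg1* were below 1 CPM in every library.

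The synthase kinases *Gsk3a* (log2 fold change -0.15, adjusted p = 0.0668) and *Gsk3b* (0.22, adjusted p = 0.0639) did not pass in edgeR, DESeq2 or limma-voom, although both had an unadjusted p under 0.05. Among 10 protein phosphatase 1 genes, which include the subunits that bring this phosphatase to glycogen, 5 were tested and 3 fell. *Ppp1r3b*, a targeting subunit best known in liver, fell from 37.0 ± 2.66 to 18.3 ± 1.54 CPM (log2 fold change -1.02, adjusted p = 6.4e-07, edgeR). It was within 2-fold with library totals (-0.92) and without mock replicate 3 (-0.97), GC7 replicate 3 (-0.97) or GC7 replicate 4 (-0.99). The catalytic subunits *Ppp1ca* (-0.53) and *Ppp1cc* (-0.28) fell less. *Ppp1r3e* ranged from 6.17 to 8.27 CPM in mock and from 4.39 to 8.38 CPM in GC7 libraries and was not called (log2 fold change -0.13, adjusted p = 0.534).

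*Epm2a*, which encodes laforin, a phosphatase that removes phosphate from glycogen, was at 9.59, 8.67, 8.72 and 9.42 CPM in mock libraries and at 1.69, 1.72, 0.888 and 0.997 CPM in GC7 libraries. It passed the filter through the mock libraries alone, so that it had to differ to be tested, and its log2 fold change of -2.77 is given with no p. With any mock library left out it no longer passed the filter. *Gaa*, which degrades glycogen in lysosomes, had a log2 fold change of -0.14 (95% interval -0.29 to 0.01) and was not called. *Stbd1*, a glycogen-binding protein, was too low to test, at 1.94 to 3.57 CPM in mock and 0.872 to 1.55 CPM in GC7 libraries. The liver synthase *Gys2* was near 0 in all libraries, at no more than 0.111 CPM.

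Of 8 genes for the entry, phosphorylation and release of glucose, 6 were tested and 5 fell, 4 of them by more than 2-fold. The transporter *Slc2a3* was at 865 to 1013 CPM in mock and 209 to 304 CPM in GC7 libraries (log2 fold change -1.84, adjusted p = 4.4e-08, edgeR). The transporter *Slc2a1* was at 344 to 367 CPM in mock and 87.2 to 166 CPM in GC7 libraries (-1.37, adjusted p = 1.2e-05), and its lowest value was in GC7 replicate 3. The hexokinases, which make glucose-6-phosphate, fell by 1.32 (*Hk1*) and 0.77 (*Hk2*) on the log2 scale. *Slc37a4*, which carries glucose-6-phosphate into the endoplasmic reticulum, fell from 94.1 ± 4.62 to 30.6 ± 1.17 CPM (log2 fold change -1.62). *G6pc3*, a widely expressed glucose-6-phosphatase, was not called.

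Among 7 genes that use UDP-glucose or convert galactose into it, 6 were tested, 3 fell and 1 rose. *Galk1*, galactokinase, was at 262 to 331 CPM in mock and 63.6 to 95.1 CPM in GC7 libraries (log2 fold change -1.74, adjusted p = 1.7e-07, edgeR). *Galt* (-0.55) and *Ugdh* (-0.40) fell less, and *Uggt1*, a glucosyltransferase of glycoprotein folding, rose by 0.39. The other phosphoglucomutase family genes tested, *Pgm2l1* (-0.53) and *Pgm3* (-0.42), fell by less than 2-fold. Of the gluconeogenic entry enzymes, *Pck1*, *Fbp1* and *Fbp2* were at or near 0 in all libraries, and *Pck2*, the mitochondrial form, had a log2 fold change of 0.19 (95% interval 0.03 to 0.35) and an adjusted p of 0.0415, above the threshold of 0.01.

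**Figure D4:**
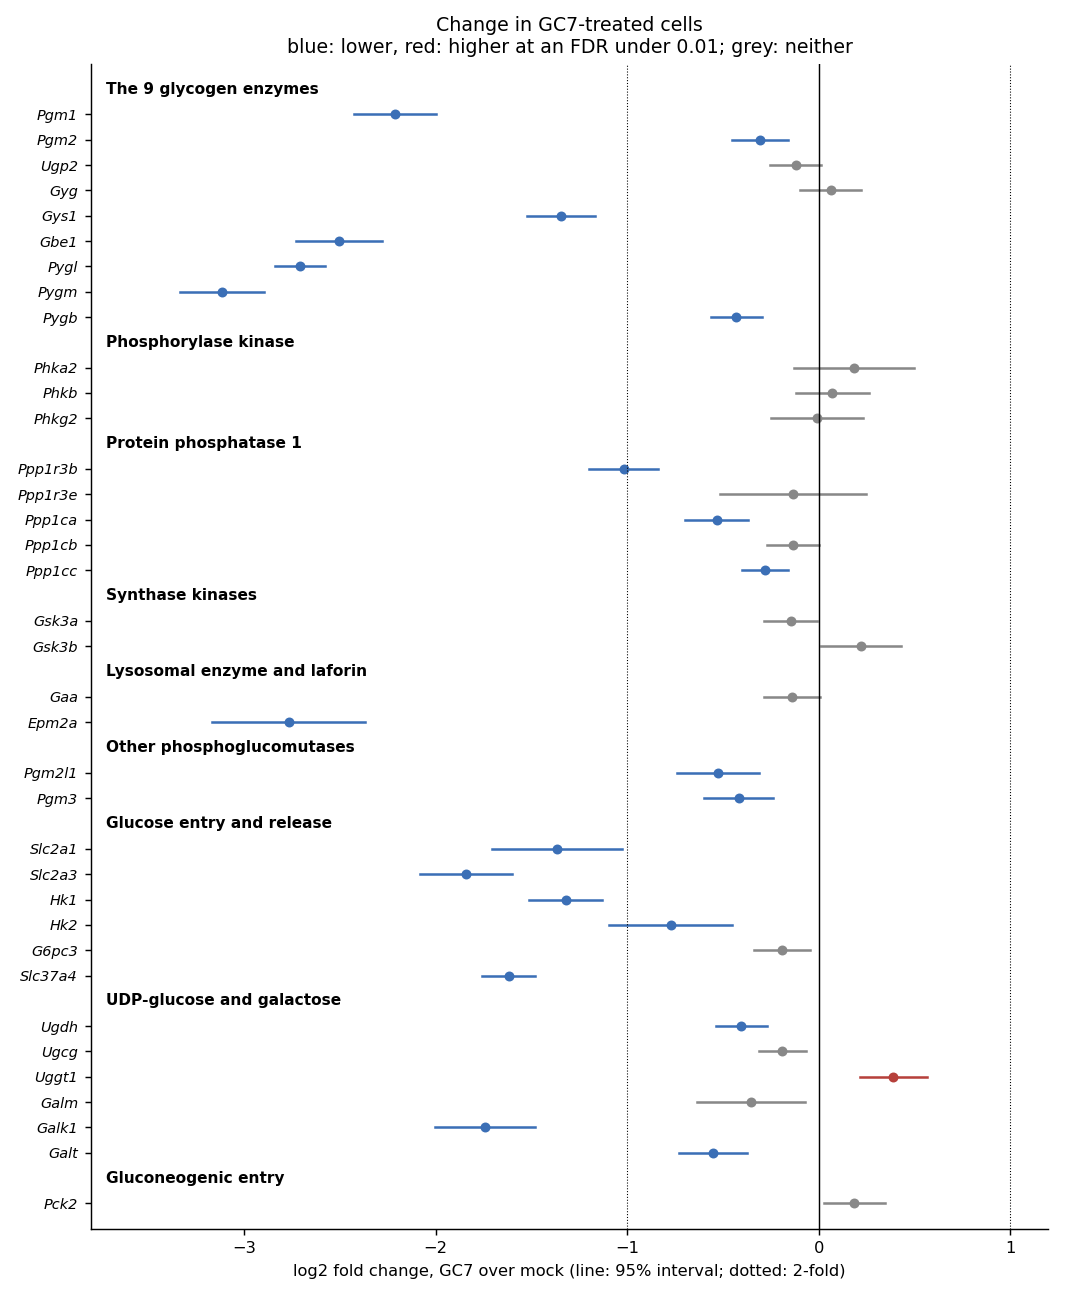
Log2 fold change, GC7 over mock (horizontal axis), with its 95% interval for the 9 enzymes and the 27 other pathway genes tested, in blocks by role. Blue genes were called lower and the red gene higher at an FDR under 0.01, and 5 of the 9 enzymes lie wholly left of the dotted line at a 2-fold decrease.

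Genes of neighbouring pathways are given to place these sizes. Of 12 glycolytic genes tested, all 12 fell, 9 by more than 2-fold, with a median log2 fold change of -1.31. Of 16 targets of hypoxia-inducible factors 14 were tested and all 14 fell, 10 by more than 2-fold, with a median of -1.79. The members' median of -1.34 lay between these. Of all genes tested, 23.5% were called lower and 5.31% lower by more than 2-fold. Both lists were also chosen with earlier results known, so their calls set no standard for *Gyg* and *Ugp2*, which were not called. The difference between lists was not tested. *Aldoa* was left out because its symbol stood for 2 identifiers.

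The cells' label was checked against markers. All 8 CD8 T cell markers were expressed, and their sum was 7164 to 8572 CPM in mock and 4873 to 6443 CPM in GC7 libraries. *Cd8a* was higher in every GC7 library (935 to 998 CPM) than in any mock library (676 to 739 CPM). The other 7 were lower in every GC7 library, such as *Lck* at 560 to 637 CPM in mock and 352 to 393 CPM in GC7 libraries, and their part in the members' differences was not tested. *Cd4* stayed below 0.5 CPM. The muscle genes *Ckm* and *Acta1* were below 0.5 CPM and *Myh4* had no count, while *Mylpf* and *Tnnt3* were low, so that the 5 muscle markers summed to 13.5 to 16.3 CPM in mock and 8.06 to 10.9 CPM in GC7 libraries. The 4 hepatocyte markers summed to at most 0.255 CPM, with *Ttr* and *Serpina1a* at 0. The part of muscle or liver RNA in the values of *Pygm* and *Pygl* was not tested. The 5 B cell markers summed to 457 to 571 CPM in mock and 268 to 293 CPM in GC7 libraries, nearly all of it *Ighm*, with *Ms4a1* at 0, and their part in the members' differences was not tested. Monocyte, neutrophil, dendritic and stromal lists each summed to no more than 11.02 CPM. Within them *Xcr1* was at 4.03 to 5.67 CPM in mock and 0.389 to 0.815 CPM in GC7 libraries, *Zbtb46* at 0.249 to 0.592 and 3.35 to 4.72 CPM, and *Mpo* at 0.973 to 1.58 and 0 to 0.181 CPM, and their part was not tested.

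eIF5a is known to help ribosomes through runs of proline codons, so these were counted in the members' coding sequences. *Pygb* held 1 run of 3 proline codons, *Gyg* and *Pgm2* each held 1 pair of proline codons followed by a glycine codon, and *Ugp2* held 2 such places. *Pygl*, *Pygm*, *Gbe1*, *Gys1* and *Pgm1*, the members called more than 2-fold lower, held none. Of 21534 protein-coding genes 29.0% held at least 1 of either kind. The measurement here is of mRNA, so it says nothing of how well these messages were translated.

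The enzymes lie on 9 different chromosomes of GRCm38, all as protein-coding genes whose exons were counted. *Pygl* (ENSMUSG00000021069) is at chr12:70190811-70231488, *Pygm* (ENSMUSG00000032648) at chr19:6384399-6398459 and *Pygb* (ENSMUSG00000033059) at chr2:150786735-150831758. *Gbe1* (ENSMUSG00000022707) is at chr16:70313949-70569716, *Gys1* (ENSMUSG00000003865) at chr7:45434844-45456619 and *Gyg* (ENSMUSG00000019528) at chr3:20122084-20155317. *Pgm1* (ENSMUSG00000025791) is at chr4:99929414-99987294, *Pgm2* (ENSMUSG00000029171) at chr5:64092950-64128351 and *Ugp2* (ENSMUSG00000001891) at chr11:21321138-21371201. Older mouse symbol lists exchange the names of *Pgm1* and *Pgm2*, and here the identifiers decide. Their mean levels lay between the 39.2th percentile of tested genes (*Pygm*) and the 86.8th (*Pygb*), so that no member was near the filter on low values by its mean.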

How the data were processed

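Total RNA was extracted for mRNA sequencing in 4 mock and 4 GC7 libraries, with groups and replicate numbers taken from the sample labels. The authors deposited raw counts per Ensembl gene, 1 table per library, without normalisation or pooling. Per the submitters' processing notes and the methods, reads were trimmed with Cutadapt, aligned to GRCm38 with STAR and counted with featureCounts. The strand setting and the handling of multiply mapped reads are not given in the sources used here. All 55536 identifiers matched GENCODE M21, the annotation of Ensembl 96.

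Libraries held 20045041 to 25284730 counts (mock) and 17528776 to 23449164 counts (GC7). Genes above 3 CPM in at least 4 libraries were fitted with edgeR (version 4.0.16, R version 4.3.3), TMM factors and the group alone in the model. Its quasi-likelihood test was used, and p-values of 11189 genes were adjusted by Benjamini-Hochberg. Calls used an FDR under 0.01, with or without a 2-fold change. Coordinates and sequences came from GENCODE M21 and RefSeq (GRCm38), and copies were searched with BLAST (version 2.17.0). Figures and sums used Python (version 3.11.15), pandas (version 2.3.3) and matplotlib (version 3.10.9).

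The members and gene lists were chosen with earlier results of these data known. Some genes first listed are not reported here and are in none of the list counts. All 9 members are named, as are up to 10 other pathway genes called with more than a 2-fold change, a set of regulators and glucose entry genes whatever their change, and the 3 protein-coding genes most like the member that differed most. Other names were chosen after their values were seen. Alternatives were RLE factors, library totals, DESeq2 (version 1.42.0), limma-voom (limma version 3.58.1), no filter, filterByExpr, a replicate block and each library left out. Coding-transcript lengths were added after seeing the data. On simulated counts for 11070 genes, with the library sizes of this comparison, the test called 41 of 50 genes changed 1.5-fold and 50 of 50 changed 2-fold. It called 50 of 50 changed 4-fold and 49 of 50 changed 8-fold, and 2 unchanged genes. Every simulated gene had the same relative spread, and far fewer genes were changed than were called in the real libraries. These rates therefore need not hold for the real libraries.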

Additional observations from a re-analysis of the deposited data

Results flagged for a closer look

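In 52 groups of 4 libraries examined for the 9 members, the 14 other pathway genes that the rule for named genes picked and the isozyme shares, 3 had 1 library far from 3 close ones, where chance alone would give about 1 in 20, or 2.6. *Pygm* in GC7 replicate 1 was at 6.68 CPM, against 8.43 to 8.56 CPM in the other GC7 libraries. The share of *Pygb* in phosphorylase TPM was 37.6% in mock replicate 2, against 43.0 to 43.6% in the other mock libraries. In the same library *Phkb* was low, at 37.1 CPM against 45.2 to 46.4 CPM. Without mock replicate 2 the log2 fold change of *Phkb*, which was never called, was -0.0062 in place of 0.07. Mock replicate 2 had the most counts of all libraries (25284730), and the part of depth in these values was not tested.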

How the results depend on the processing

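Over the alternatives, 134 values of the 9 members kept their direction and call, and *Pgm2* lost its call with library totals (-0.22). Library totals moved the median of all genes from 0.02 to 0.11 and the split of calls from 2635 lower and 2579 higher to 2058 and 3346. Without each library in turn, log2 fold changes ranged from -3.16 to -3.04 for *Pygm*, -2.74 to -2.70 for *Pygl* and 0.02 to 0.12 for *Gyg*. For the other pathway genes that the rule for named genes picked, 199 values kept direction and call and 7 changed sign. None of those sign changes was of a called gene. Pathway genes named besides these, such as *Pck2* and *Uggt1*, are not in those values. The 199 include values of *Epm2a*, which had to differ to be tested, so its kept calls are not evidence. *Epm2a* has no value with a mock library left out, as it then failed the filter. The count of other pathway genes lower by more than 2-fold, 7 here, ranged from 5 (without mock replicate 3) to 9 (no filter or filterByExpr). With a library left out, *Phkb* ranged from -0.0062 to 0.1245, *Phkg2* from -0.1058 to 0.0588 and *Ppp1r3e* from -0.2415 to 0.0286, and *Phkg2* was 0.0847 with library totals. *Gsk3b* was 0.12 without mock replicate 2, in place of 0.22. The count of other pathway genes higher, 1 here, was 2 with library totals or without GC7 replicate 3 (*Pck2* added), and 2 with no filter or filterByExpr (*Uggt2* added, the 1 past 2-fold). With no filter 1189 genes were lower and 773 higher by more than 2-fold, and with filterByExpr 1007 and 605. Without length scaling *Pygl* made up 40.9% and 16.2% of phosphorylase mRNA in mock and GC7-treated cells, *Pygm* 18.6% and 5.56% and *Pygb* 40.5% and 78.2%. With coding-transcript lengths these were 46.2% and 20.8%, 20.7% and 6.99%, and 33.1% and 72.3% for *Pygb*. Same-numbered libraries did not deviate together in every pair (correlations 0.27, -0.12, 0.20 and -0.18), so the numbers were not taken as pairs. With a replicate block 7 members were called lower, 5 of them by more than 2-fold, as without it, and over all genes 2485 were lower and 2382 higher. In 2 of 4 numbers the libraries correlated best with their own number. Each member had at least 138 counts in every library, and the effect of depth was not tested.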

Other observations

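By Pearson's r of log2 CPM over the 8 libraries, the tested protein-coding genes most like *Pygm* were *mt-Nd6* (r = 0.999), a mitochondrially encoded subunit of respiratory complex I, *Serpinb1a* (r = 0.999), an inhibitor of granule proteases, and *Ndrg2* (r = 0.998). The 8 libraries share their 2 groups, so these values mostly reflect the difference between groups and carry no p. *mt-Nd6* was at a mean of 243 CPM in mock and 32.7 CPM in GC7-treated cells, *Serpinb1a* at 44.9 and 4.79 CPM, and *Ndrg2* at 92.2 and 26.9 CPM.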
